A study of Homo sapiens and Mus musculus with 99 samples.

Results

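NCI-H1437 is an epithelial line from a human lung adenocarcinoma, a non-small-cell lung cancer. In the fourth NCI-H1437 experiment of the series, cells were given an extract of the mould *Alternaria alternata* (WT ALT) for 4 h, and the extract was set against the mock treatment, DPBS (a buffered salt solution). The comparison rests on 4 of the 99 libraries of the series: 2 of WT ALT and 2 of DPBS, chosen by their labels alone and not by any measured value. The same experiment holds 2 libraries each of cells given extracts labelled aegs KO and aegl KO, collected at the same time. Aeg-S and Aeg-L are pore-forming proteins, and the knockout labels name their genes. All 8 libraries share the line, the RPMI 1640 medium with serum, the time and the RNA kit. No dose of any extract is given in the labels. The series design text speaks of biological replicates, at least 2 per condition, without saying whether they were separate cultures on separate days, so p-values measure the spread between these libraries.

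*Alternaria* is a common allergenic mould, and its extracts are used to provoke airway epithelium. An epithelial cell whose membrane is breached loses its ion gradients and takes in calcium, and it answers such stress within minutes to hours. The first genes switched on in that answer, the immediate early genes, encode transcription factors of the AP-1, EGR and NR4A families and need no new protein synthesis. Chemokines, cytokines, growth factors and the inhibitors that end the signal follow.

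The cells carried epithelial markers. The 9 markers (EPCAM, keratins, E-cadherin, claudins and ELF3) summed to 5227 and 5043 CPM (counts scaled by library size) in the DPBS libraries and to 6002 and 6216 CPM under WT ALT. All 7 markers of alveolar and club cells were below 1 CPM with DPBS, and SFTPA1, SFTPC, SCGB1A1 and SCGB3A2 had 0 counts in all 8 libraries. Endothelial markers summed to between 5.03 and 9.63 CPM and leukocyte markers to between 30.9 and 33.7 CPM in the 4 libraries, with MS4A1 at 0. Fibroblast markers summed to 70.9 and 87.5 CPM with DPBS and to 122 and 92.6 CPM under WT ALT, nearly all of it COL1A1, while COL3A1, DCN and LUM had 0 counts. The 8 libraries held 33.62 to 47.39 M counted fragments. The first principal component, 42% of the variance, placed the WT ALT libraries at -64.4 and -57.9 and the other 6 between 18.14 and 22.05. The second, 13.2%, held the WT ALT libraries apart from each other, at 22.87 and -24.87.

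The extract changed a large part of the transcriptome, 32.8% of the genes tested. Of 16711 genes, 2632 (15.8%) rose and 2851 (17.1%) fell at an adjusted p under 0.05 (edgeR's quasi-likelihood test with Benjamini-Hochberg adjustment, used for every adjusted p below). In bulk RNA, a change in the number of cells that respond and one in the RNA per cell cannot be told apart. Most changes were small: 490 genes (2.93%) rose and 326 (1.95%) fell by at least 2-fold. Among the called genes, 2624 of those that rose and 2849 of those that fell had no overlap between the 2 WT ALT and the 2 DPBS libraries. The calls came from these same libraries, so that count adds no support of its own. The share without overlap over all tested genes was not counted. The split between higher and lower calls depends on the scaling. With library totals in place of TMM factors, which moved the median of all genes from -0.01 to -0.09 on the log2 scale, 1938 rose and 3819 fell, so that the share of calls that were higher went from 48% to 33.7%. Without the second DPBS library, 1690 rose and 2083 fell.

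**Figure D1:**
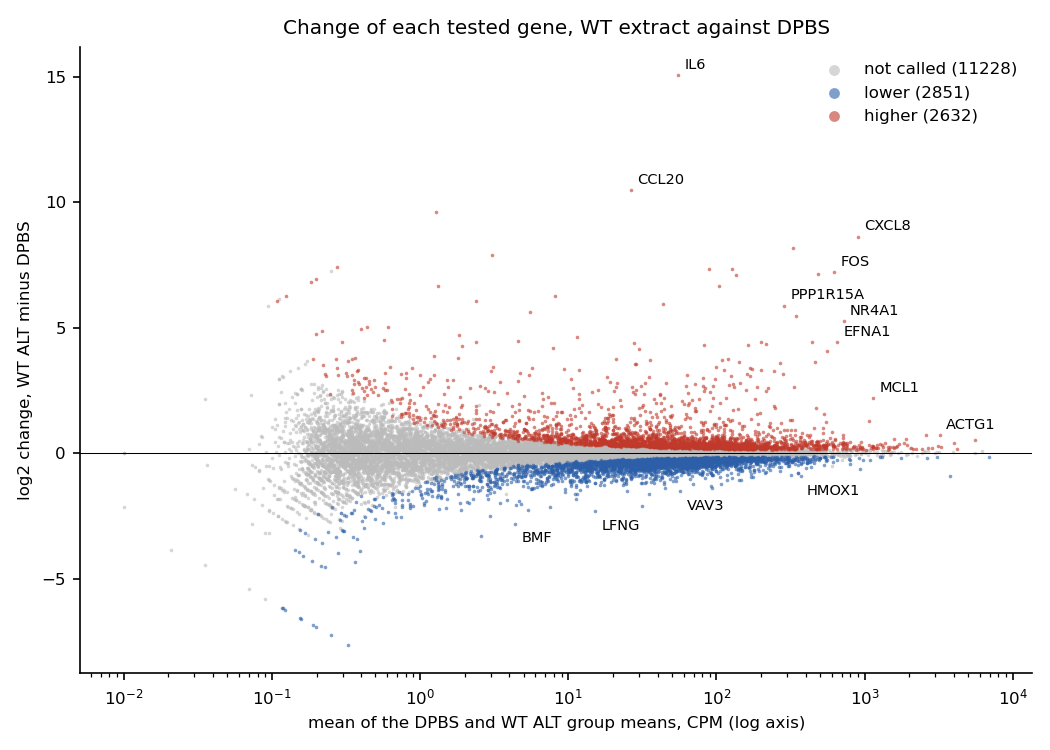
Log2 change of each of the 16711 tested genes (vertical axis) against its level, the mean of the DPBS and WT ALT group means in CPM (horizontal log axis). Red points are the 2632 genes called higher, blue points the 2851 called lower; the largest increases reach far above 5 log2 units, whereas the largest decreases stop near -3 at levels over 5 CPM. The height of the IL6 point, with 0 counts under DPBS, depends on the prior count of the fit.

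The chance of a call grew with the level. Among 3615 genes under 1 CPM with DPBS, 4.48% rose and 1.6% fell. Among 2320 genes over 100 CPM, 27.9% rose and 26.1% fell, but 0.647% rose and 0.259% fell by at least 2-fold. Increases of at least 2-fold numbered 162 under 1 CPM, 154 from 1 to 10 CPM, 159 from 10 to 100 CPM and 15 above. CPM are not divided by gene length, so these bins also follow length. The 20 largest increases (fitted log2 change, at least 5 CPM in the higher group) together gained 10750 CPM, summed over their group means. By gain in CPM alone, KRT81, a hair-type keratin, came first, from 4767 and 4442 to 6754 and 6361 CPM (0.51 ± 0.04).

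Chemokines and cytokines led these increases. IL6, a cytokine of fever and the acute phase (hg19 chromosome 7, 22765503 to 22771621, plus strand), had 0 counts in both DPBS libraries and 129.6 and 90.5 CPM under WT ALT. Against a floor of 3 counts over the DPBS group it was at least 3232-fold higher (adjusted p = 1.11e-12). CCL20, which attracts dendritic cells and Th17 cells through CCR6 (hg19 chromosome 2, 228678558 to 228682272, plus strand), was at 0.0417 and 0.0249 CPM with DPBS and at 64.4 and 41.8 CPM with the extract, a log2 change of 10.48 ± 0.35 (adjusted p = 2.78e-12). The neutrophil attractants CXCL8, CXCL2, CXCL1 and CXCL3 lie in a cluster on chromosome 4. CXCL8 went from 4.69 and 4.44 to 2023 and 1582 CPM. CXCL2 went from 1.92 and 2.69 to 774 and 526 CPM (8.15 ± 0.19 on the log2 scale, adjusted p = 1.14e-14). CXCL1 stood at 1.77 and 2.22 and then 313 and 226 CPM, and CXCL3 at 1.63 and 1.15 and then 100.1 and 71.2 CPM. The rule for naming increases required that the groups did not overlap. In all of these genes both treated libraries lay far above both controls, and the first WT ALT library lay above the second. That order held for 19 of the 20 largest increases, with a median ratio of 1.39 between the libraries and a range from 0.989 to 1.7. Depth was 34.22 and 33.62 M in these libraries and mitochondrial RNA 2.01% and 2.02%, against 1.58% and 2.83% with DPBS; their part in the order was not tested.

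Of 16 chemokines listed, 9 passed the filter on low counts and 7 of these rose and 0 fell, with a median log2 change of 5.93 beside -0.01 over all genes. This share, and those of the lists that follow, are to be read against 15.8% higher and 17.1% lower over all tested genes. A gene that was silent with DPBS enters such a count only through the treated libraries, here and in the lists that follow. In the 12 lists in which 0 members fell, leaving aside ribosomal proteins, 1 of 178 tested members was lower at an unadjusted p under 0.05 (HPGD) and DESeq2 called 0 lower. Without the second WT ALT library 2 of the EGR, NR4A and KLF genes and 1 gene each of the prostaglandin, YAP and SRF, plasminogen, metallothionein and annexin lists were called lower. CXCL16, a membrane-bound chemokine already expressed at 55.5 and 50.5 CPM, rose by only 0.34 ± 0.07. The eotaxin CCL26 (0.52) and CCL28 (0.60) did not pass the test, and CCL2, CXCL10 and CCL24 were among the 7 not tested.

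Among 32 cytokines and growth factors, 25 were tested, 19 rose and 0 fell (median 1.70). BMP2, a bone morphogenetic protein, went from 38.1 and 34.8 to 388 and 343 CPM (3.33 ± 0.08). GDF15, a stress-induced TGF-beta relative, went from 37.6 and 34 to 309.6 and 288 CPM (3.06 ± 0.08). LIF, of the IL-6 family, went from 9.47 and 14.1 to 82.3 and 77.9 CPM (2.77 ± 0.16). In these 3 genes the treated libraries lay close together and well above the controls. IL20, an epidermal and epithelial cytokine, was at 0.0834 and 0.0499 CPM with DPBS and 5.1 and 4.33 CPM with the extract (6.05 ± 0.68). IL11 rose from 1.36 and 1.15 to 7.56 and 5.46 CPM and IL24 from 0.396 and 0.374 to 2.55 and 3.36 CPM. The alarmin IL1A stood at 0.188 and 0.249 and then 10.7 and 10.8 CPM, the only one of the 20 largest increases in which the first treated library was not above the second. IL1B was called but reached only 0.42 and 0.722 CPM, and its call ended without the second WT ALT or the first DPBS library. IL18, stored as a precursor, rose from 80.5 and 79.7 to 127 and 115 CPM (0.60 ± 0.08). TSLP and IL25, epithelial cytokines of type 2 inflammation, and TNF were not tested, with 2 counts at most in any of the 4 libraries.

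Immediate early transcription factors rose as families. Of 13 tested AP-1 genes 10 rose and 1 fell (median 2.48). FOSB went from 1.04 and 1.12 to 222 and 130.3 CPM (7.35 ± 0.26, adjusted p = 1.60e-12). ATF3, a stress-induced member, went from 1.21 and 1.94 to 288 and 216 CPM (7.34 ± 0.18). JUN went from 17.7 and 18.5 to 465 and 302 CPM (4.41 ± 0.15). In all 3 the groups were far apart, and the first treated library was the higher. FOSL1 went from 30.3 and 29 to 324 and 294 CPM (3.38 ± 0.08) and JUND from 71.1 and 72.6 to 164 and 145 CPM (1.11 ± 0.07). The small MAF protein MAFF, a dimer partner of factors such as NRF2, went from 16.1 and 14.8 to 317 and 302 CPM (4.32 ± 0.09), whereas MAFG did not pass the test (0.03). FOSL2 fell from 425 and 416 to 342 and 384 CPM (-0.21 ± 0.06), a call that ended without the first DPBS library or with the 4 libraries alone.

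In the EGR, NR4A and KLF families 13 of 16 tested genes rose and 0 fell (median 2.36). EGR1 and EGR2, zinc finger factors of the growth response, went from 7.2 and 6.51 to 1172 and 747 and from 0.0834 and 0.349 to 18.9 and 13.4 CPM. NR4A1, an orphan nuclear receptor, went from 37.4 and 36.3 to 1579 and 1228 CPM (5.25 ± 0.11). Its relative NR4A2 rose from 69.2 and 69.7 to 965 and 749 CPM (3.63 ± 0.10). KLF6 rose from 21.7 and 19.8 to 229 and 181 CPM (3.30 ± 0.10), KLF4 and KLF5 by 1.91 and 1.57, while KLF3, KLF7 and KLF13 lay between -0.09 and -0.02 without passing. Of 20 other immediate early genes 18 rose and 1 fell (median 2.19). PPP1R15A, which returns eIF2alpha to its unphosphorylated state, went from 10.1 and 9.15 to 631 and 499 CPM (5.87 ± 0.11, adjusted p = 2.06e-15). TIPARP, a mono-ADP-ribosyltransferase, went from 40.1 and 41.9 to 538 and 448 CPM (3.59 ± 0.08). SGK1, a kinase of salt balance and growth factor signalling, rose from 1.42 and 1.92 to 20.9 and 13.4 CPM. MYC had a change of 0.08 ± 0.05 and was not called, and IER5L fell from 45.8 and 47.5 to 22 and 29.7 CPM (-0.85 ± 0.11).

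**Figure D2:**
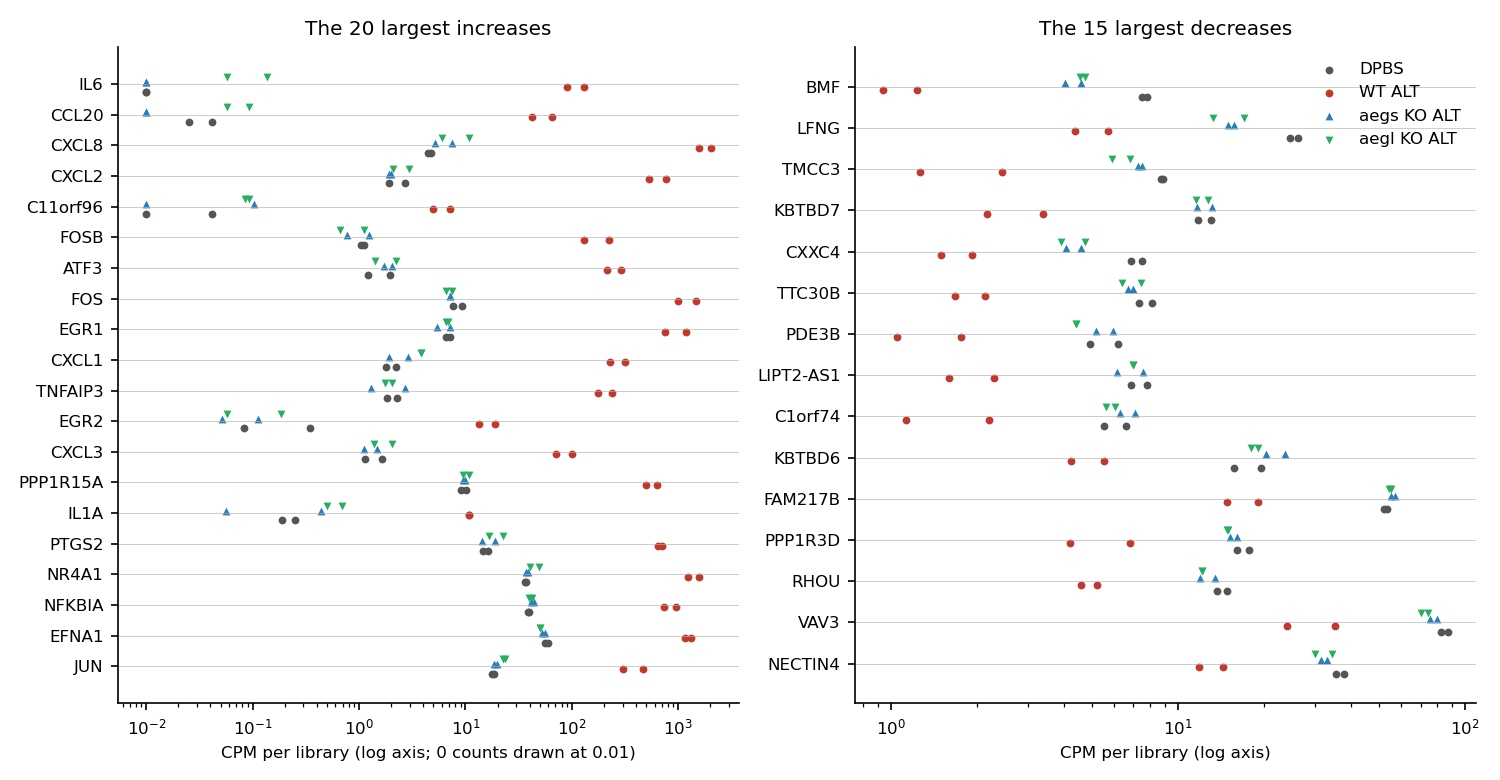
Level in each library, in CPM on a log axis, of the 20 genes with the largest increases (left) and the 15 with the largest decreases (right); grey circles are DPBS, red circles WT ALT, blue and green triangles the aegs KO and aegl KO extracts, 2 libraries each. For every increase the red points stand alone to the right of the other 6 libraries. The genes drawn were chosen by WT ALT against DPBS, without overlap between those groups. For decreases such as BMF (1.23 and 0.942 CPM under WT ALT) the knockout extracts lie between WT ALT and DPBS.

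The promoters of 5 of these genes are given to show examples of the motifs counted below: NF-kB and TATA motifs, in several of the increases, and AP-1 and CArG motifs, in 2 and 1 of them. The sequences are from RefSeq (GRCh38.p14), the 250 bases before the transcription start, 5′ to 3′ on the gene's strand. Capitals mark an NF-kB motif in IL6 (chr7:22726950-22727199, plus strand) and CXCL2 (chr4:74099196-74099445, minus strand), an AP-1 motif and a TATA box in CXCL8 (chr4:73740319-73740568, plus strand), a TATA box in FOSB (chr19:45467746-45467995, plus strand) and a pair of CArG boxes in EGR1 (chr5:138465229-138465478, plus strand). CArG boxes are the sites of SRF.
IL6: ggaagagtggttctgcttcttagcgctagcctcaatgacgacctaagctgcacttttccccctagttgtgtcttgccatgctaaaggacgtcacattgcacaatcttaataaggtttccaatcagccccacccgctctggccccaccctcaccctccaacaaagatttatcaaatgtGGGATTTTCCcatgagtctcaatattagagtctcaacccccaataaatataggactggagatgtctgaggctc
CXCL2: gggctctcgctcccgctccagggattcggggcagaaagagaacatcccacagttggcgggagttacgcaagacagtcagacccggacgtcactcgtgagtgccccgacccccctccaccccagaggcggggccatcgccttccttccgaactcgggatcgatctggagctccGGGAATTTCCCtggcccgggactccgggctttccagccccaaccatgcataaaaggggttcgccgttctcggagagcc
CXCL8: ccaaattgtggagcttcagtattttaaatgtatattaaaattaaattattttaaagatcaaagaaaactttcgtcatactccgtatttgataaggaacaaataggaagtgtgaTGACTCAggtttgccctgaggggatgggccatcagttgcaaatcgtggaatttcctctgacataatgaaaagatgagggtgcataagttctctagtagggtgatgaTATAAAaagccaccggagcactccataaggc
FOSB: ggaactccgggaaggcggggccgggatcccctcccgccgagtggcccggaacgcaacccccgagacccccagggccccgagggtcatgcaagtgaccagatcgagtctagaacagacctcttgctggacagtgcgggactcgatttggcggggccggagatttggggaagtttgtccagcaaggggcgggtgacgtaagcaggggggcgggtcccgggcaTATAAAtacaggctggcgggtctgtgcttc
EGR1: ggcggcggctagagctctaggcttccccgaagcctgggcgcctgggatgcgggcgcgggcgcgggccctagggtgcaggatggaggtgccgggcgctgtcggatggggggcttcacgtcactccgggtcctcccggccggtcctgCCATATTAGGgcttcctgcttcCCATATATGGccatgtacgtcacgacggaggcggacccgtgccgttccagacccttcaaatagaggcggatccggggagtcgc
The NF-kB motif of IL6 lies 73 to 64 bases before the start. In CXCL2 matches on both strands overlap from 78 to 68 bases before it. In CXCL8 the AP-1 motif lies 137 to 131 bases and the TATA box 31 to 26 bases before the start.

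Of the 20 largest increases 19 had a promoter in that table. The NF-kB motif was GGGRNNYYCC, with R for A or G, Y for C or T and N for any base. It was in 7 of these promoters (36.8%: IL6, CCL20, CXCL1, CXCL2, CXCL3, TNFAIP3 and NFKBIA), beside 9.57% of all 27305 promoters. Near matches were not counted, such as tggaatttcc in the printed CXCL8 promoter, so a promoter without the motif may still hold a related site. The 6 letters TATAAA were in 8 (42.1%), in NFKBIA on the opposite strand, beside 11.1% of all. The AP-1 motif TGANTCA was in 2 (10.5%, IL1A and CXCL8) beside 6.6%, the cyclic AMP element TGACGTCA in 1 (PPP1R15A) beside 1.77%, and the CArG box in 1 (EGR1) beside 1.14%. Of the 15 largest decreases 11 were in the table, with the NF-kB motif in BMF and AP-1 and TATA motifs in VAV3. Every motif was searched on both strands; a match is a run of letters and not a bound site, and these lists of genes were chosen by their change.

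Inhibitors of the same signals rose alongside. Of 23 tested NF-kB feedback and target genes 18 rose and 0 fell (median 1.28). NFKBIA, the inhibitor that holds NF-kB in the cytoplasm, went from 39.1 and 39.1 to 959 and 741 CPM (4.44 ± 0.10). NFKBIZ, a nuclear cofactor needed for part of the cytokine genes, went from 4.4 and 5.71 to 76.6 and 56.5 CPM (3.73 ± 0.17). The adhesion molecule ICAM1 went from 2.92 and 2.84 to 40.9 and 37.4 CPM (3.76 ± 0.14). Of the subunits, RELB, NFKB2 and NFKB1 rose by 1.95, 1.76 and 1.66, REL by 1.54 and RELA by 0.29 ± 0.06. The deubiquitinase CYLD (-0.03) and the adaptor kinase RIPK2 (0.10) did not pass the test.

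Of 17 tested MAP kinase phosphatases and RAS-ERK inhibitors 11 rose and 0 fell (median 1.15). DUSP1, which inactivates p38 and JNK, went from 62.2 and 63.9 to 1334 and 765 CPM (4.06 ± 0.17), with the first treated library well above the second. DUSP5, a nuclear ERK phosphatase, went from 58.8 and 53.2 to 537 and 469.8 CPM (3.17 ± 0.08). ERRFI1, which binds and blocks the EGF receptor, went from 95.9 and 91.1 to 567 and 585 CPM (2.62 ± 0.06). SPRY4 rose (2.18 ± 0.12) while SPRY1 (0.70) and SPRY2 (0.48) did not pass. Of 12 ERK output genes 8 rose and 1 fell, among them PHLDA1 (2.79 ± 0.10). The ETS factors ETV4 (0.07) and ETV5 (0.17) did not pass, and ETV1, under 1 CPM, was the one that fell.

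Messenger RNA decay factors moved both ways, 7 higher and 5 lower of 16. The counts were 9 and 3 without the first WT ALT library and 6 and 3 without the second DPBS library. Those that destroy short-lived cytokine messages rose: ZFP36 (tristetraprolin) went from 15.7 and 18.1 to 203 and 162 CPM (3.43 ± 0.12) and ZC3H12A (regnase-1) from 7.61 and 9.27 to 66.4 and 48.6 CPM (2.77 ± 0.15). CNOT1, the scaffold of the general deadenylase, fell from 463 and 463 to 373 and 390.4 CPM (-0.28 ± 0.05). SOCS3, an inhibitor of IL-6 family receptors, went from 1.9 and 2.42 to 21 and 21.8 CPM (3.31 ± 0.21). In its list of SOCS proteins and checkpoint ligands 7 of 12 rose and 1 fell. The one that fell lost its call without the first WT ALT or either DPBS library. The complement shield CD55 rose from 182 and 175 to 410.2 and 489 CPM (1.33 ± 0.08) and the checkpoint ligand CD274 (PD-L1) from 0.542 and 0.399 to 2.73 and 2.13 CPM (2.36 ± 0.45).

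**Figure D3:**
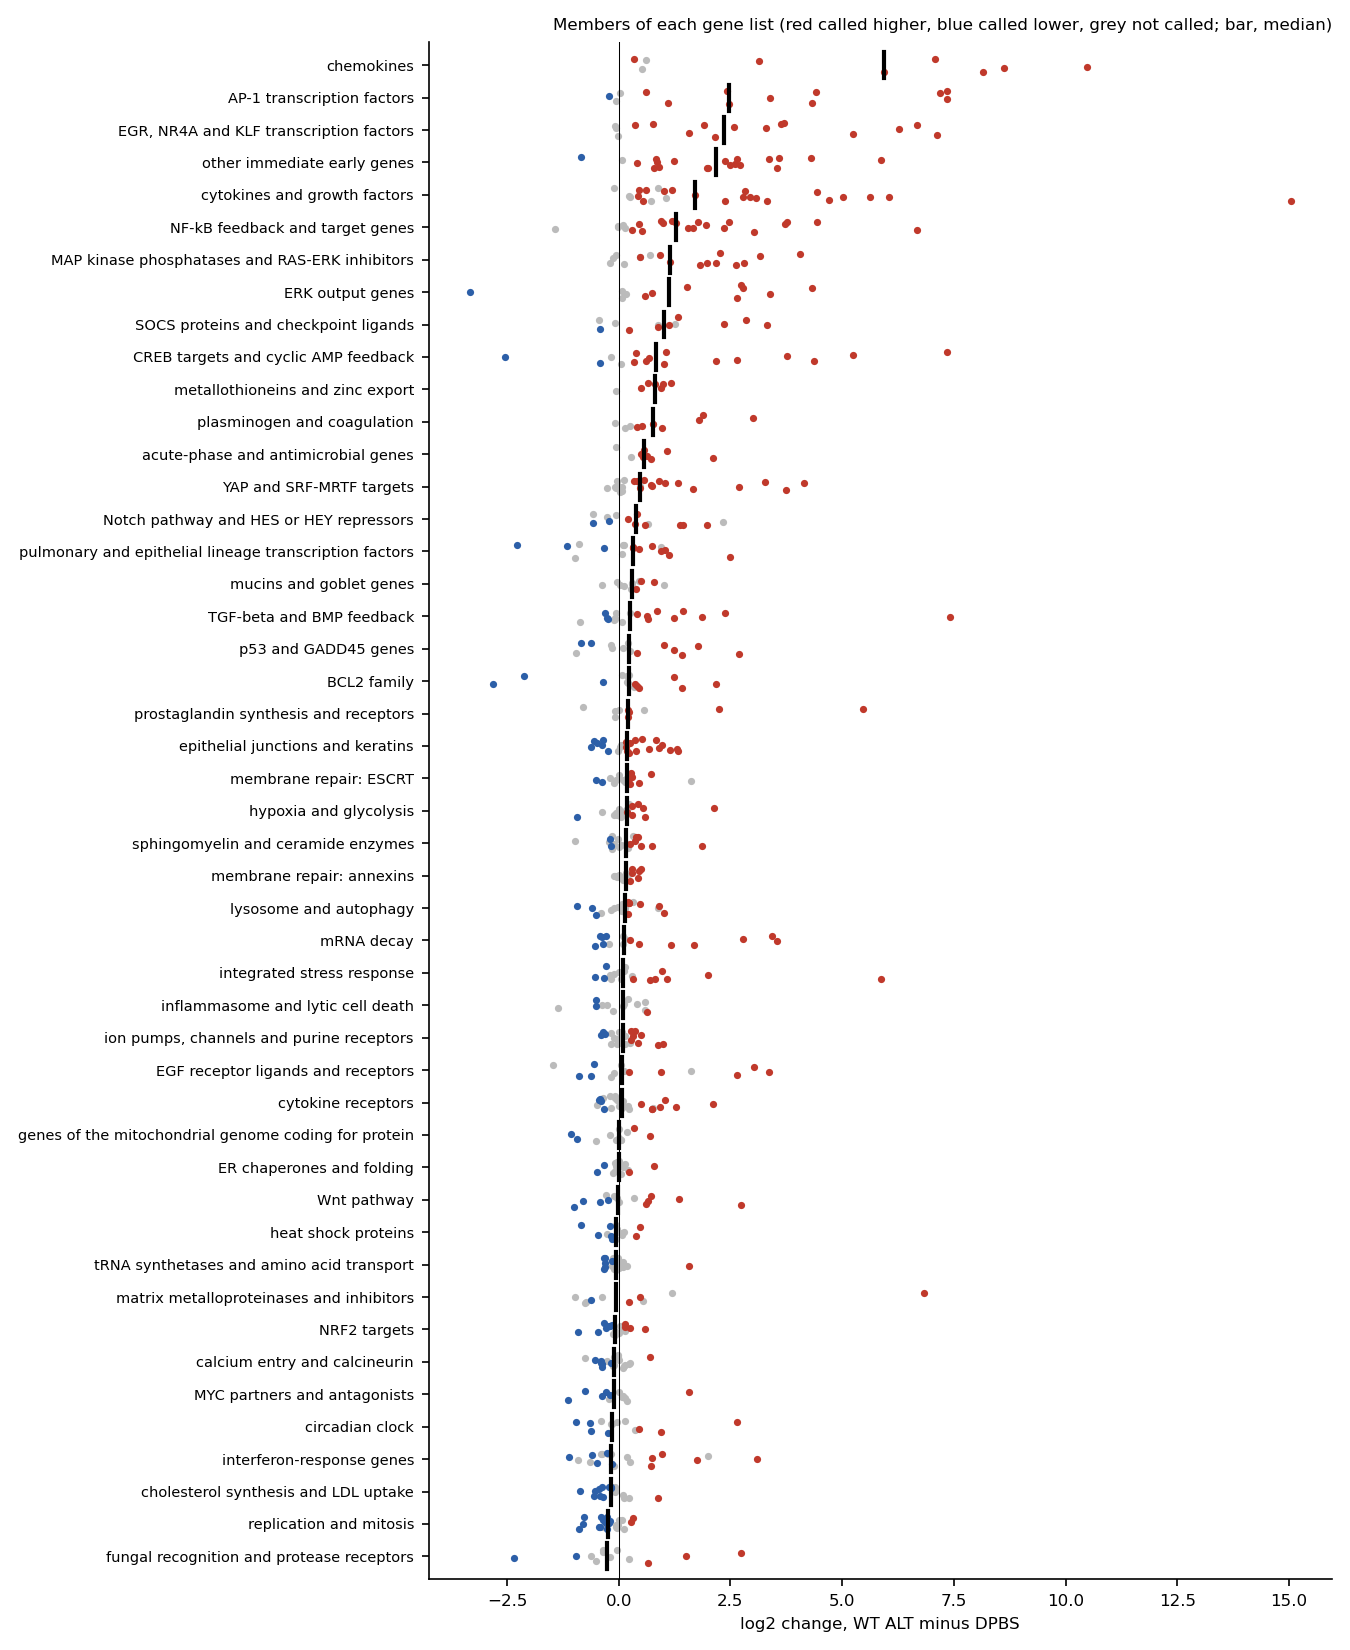
Log2 change (horizontal axis) of every tested member of 47 gene lists, sorted by the list's median, drawn as a black bar; red points were called higher, blue lower, grey were not called. Chemokines (median 5.93), AP-1 genes (2.48) and EGR, NR4A and KLF genes (2.36) stand at the top, and lists such as replication and mitosis (-0.24) and cholesterol synthesis (-0.17) at the bottom.

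Most EGF receptor ligands that were called rose. Of 14 ligands, receptors and their regulators 5 rose and 3 fell, but with library totals in place of TMM factors 4 rose and 5 fell. EREG, AREG and HBEGF are ligands shed from the cell surface. EREG went from 32.1 and 29.8 to 285 and 349.8 CPM (3.36 ± 0.12), AREG from 7.03 and 8.4 to 57.2 and 68.5 CPM (3.03 ± 0.15) and HBEGF from 8.32 and 6.61 to 51.8 and 41.6 CPM (2.64 ± 0.15). TGFA rose less (0.95 ± 0.08), and EGF itself fell (-0.63 ± 0.11). ERBB3, the receptor with weak kinase activity, fell from 153 and 154 to 83.4 and 81.7 CPM (-0.89 ± 0.06), and LRIG1, which promotes receptor breakdown, fell (-0.55). EFNA1, a membrane-bound ligand, went from 56.2 and 59.2 to 1327 and 1164 CPM (4.43 ± 0.07, adjusted p = 4.52e-16), and its receptor EPHA2 from 35 and 32.3 to 239 and 211 CPM (2.74 ± 0.08). For the ligands and for both of this pair the control and treated libraries were far apart.

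Prostaglandin, protease and cytoskeletal genes followed. PTGS2, the inducible cyclooxygenase, went from 16.2 and 14.5 to 704 and 649 CPM (5.46 ± 0.13, adjusted p = 1.14e-14), and the prostaglandin E2 receptor PTGER4 rose by 2.23 ± 0.46 at low level. The other 3 of the 5 that rose of 10, the synthases PTGS1, PTGES and PTGES2, changed by 0.20 to 0.22 and lost the call without the second DPBS library. Without TMM 2 of the prostaglandin genes rose and 2 fell. In the plasminogen list 7 of 11 rose and 0 fell: the urokinase PLAU went from 18.1 and 18.1 to 137 and 153 CPM (3.0 ± 0.12) and its receptor PLAUR from 23.8 and 18.3 to 74.6 and 80.8 CPM (1.88 ± 0.12). THBS1, a matrix glycoprotein, rose by 1.81 ± 0.08.

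Among targets of YAP and of SRF with MRTF, 14 of 24 rose and 0 fell. CCN1 and CCN2, secreted matrix proteins read as YAP targets, went from 17.6 and 15.2 to 256 and 187 CPM (3.75 ± 0.13) and from 3.61 and 2.77 to 65.6 and 47.8 CPM (4.14 ± 0.17). RND1, a small GTPase that dissolves stress fibres, went from 45.2 and 45.7 to 469.9 and 412 CPM (3.28 ± 0.07). The actins gained much RNA at a small fold: ACTG1 went from 2436 and 2419.9 to 3971 and 4077 CPM (0.73 ± 0.04) and ACTB from 3449 and 3467 to 4592 and 4604 CPM (0.41 ± 0.04). VCL, MYH9 and TPM1, also SRF targets, lay between 0.08 and 0.11 and were not called.

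Cyclic AMP feedback genes mostly rose, and few calcium genes did. Of 16 CREB targets and feedback genes 12 rose and 2 fell: RGS2, which turns off Gq, went from 2.57 and 2.54 to 60.4 and 45.8 CPM (4.37 ± 0.17) and the phosphodiesterase PDE4B from 32.3 and 36.2 to 157 and 154 CPM (2.18 ± 0.08). PER1, a clock gene with cyclic AMP elements, went from 8.68 and 8.28 to 53.9 and 53 CPM (2.66 ± 0.11), whereas PER2 (-0.63) and NR1D2 (-0.63) fell; the clock list had 3 higher and 4 lower of 13. Of 21 genes of calcium entry and calcineurin 1 rose (4.76%) and 6 fell (28.6%), beside 15.8% and 17.1% over all genes. Without the second WT ALT library 2 rose and 9 fell. The calcineurin feedback gene RCAN1 had 0.25 ± 0.14 and was not called. NFAT5, the factor of osmotic stress, was the one that rose, from 30.1 and 29.1 to 51.7 and 44.8 CPM (0.71 ± 0.09). The difference between these lists was not tested. Lists also share members, so their counts are not separate results: FOSB stands in both the CREB and the AP-1 list.

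Stress pathways did not move as one. In the integrated stress response 7 of 20 rose and 3 fell, or 6 fell without TMM. The factor ATF4 went from 325 and 322 to 539 and 519.6 CPM (0.71 ± 0.05) and DDIT3 (CHOP) from 2.61 and 3.52 to 13.2 and 11.1 CPM (2.0 ± 0.22). Its amino acid enzymes ASNS, PSAT1, PHGDH, SHMT2 and MTHFD2 lay between -0.10 and 0.14 and did not pass. Of 18 ER chaperones and folding genes 2 rose and 2 fell (11.1% each, beside 15.8% and 17.1% over all genes). HSPA5 had -0.06, and XBP1 fell from 421 and 409.6 to 284 and 308 CPM (-0.49 ± 0.06). Of 15 heat shock genes 2 rose and 5 fell. DNAJB1 fell from 155 and 157 to 121 and 107 CPM (-0.45 ± 0.07) and DNAJB4 from 37.5 and 40.7 to 19 and 24.3 CPM (-0.85 ± 0.10). Both counts of lower genes are unsteady. That of the ER list was 7 without TMM and 5 without the second WT ALT library, and its higher count was 1 without the second DPBS library. That of the heat shock list was 8 without TMM, 3 without the second DPBS library and 2 with the 4 libraries alone.

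NRF2 targets, the antioxidant defence, had 4 higher and 7 lower of 18. HMOX1, which degrades heme, fell from 490.2 and 479 to 243 and 271 CPM (-0.92 ± 0.06, adjusted p = 4.93e-09), with no overlap. GCLC, of glutathione synthesis, fell (-0.47 ± 0.08), and NQO1 (0.03) was not called, while NFE2L2, which encodes NRF2, rose from 86.5 and 93.2 to 117 and 154 CPM (0.59 ± 0.09). The count is unsteady, 1 higher and 5 lower without the second DPBS library and 2 higher and 10 lower without TMM. Metallothioneins, which bind zinc and copper, had 6 higher and 0 lower of 7 (median 0.81), with MT2A going from 216 and 194 to 356 and 429 CPM (0.94 ± 0.08). The zinc exporter SLC30A1 (-0.07) was the other tested member.

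Survival and death genes changed in both directions. MCL1, a short-lived guard against apoptosis, went from 411 and 414 to 1766 and 1967 CPM (2.18 ± 0.06, adjusted p = 2.62e-14). PMAIP1 (NOXA), which antagonises it, rose from 12.1 and 16.8 to 37.9 and 38.9 CPM (1.41 ± 0.13). BMF, another killer of the family and the largest of the 15 named decreases (hg19 chromosome 15, 40380091 to 40401093, minus strand), fell from 7.51 and 7.83 to 1.23 and 0.942 CPM (-2.81 ± 0.22, adjusted p = 5.38e-08). The whole BCL2 family had 6 higher and 3 lower of 15. Among p53 and GADD45 genes 6 of 14 rose and 2 fell: the cell cycle inhibitor CDKN1A went from 17.7 and 15.8 to 95.9 and 121 CPM (2.69 ± 0.11), and MDM2, which degrades p53, fell from 72.9 and 73.7 to 44.4 and 51.3 CPM (-0.62 ± 0.08). Of 13 inflammasome and lytic death genes 1 rose (7.69%) and 2 fell (15.4%), beside 15.8% and 17.1% over all genes. Both counts changed when a library was left out. NLRP3 was not tested, and NINJ1 (0.10), GSDMD (0.11) and MLKL (0.20) did not pass.

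Interferon-response genes had 5 higher and 5 lower of 20 (25% each, beside 15.8% and 17.1% over all genes). They had 3 and 6 without the second WT ALT library and 4 and 3 without the first DPBS library. IRF1, a transcription factor that NF-kB drives, went from 13.5 and 13.1 to 128 and 99.1 CPM (3.09 ± 0.11), and ISG15 from 9.53 and 7.3 to 32.2 and 24.7 CPM (1.75 ± 0.15). IFIT3 fell (-1.12 ± 0.23), MX1 (-0.11) was not called, and IFNB1 and IFNL1 had 0 counts. Of 12 receptors for fungal molecules and proteases 3 rose (25%) and 2 fell (16.7%), shares near the 15.8% and 17.1% over all genes; 1 fell without the first DPBS library. F2RL1 (PAR2), which proteases cut and activate, went from 14.7 and 17.2 to 42.1 and 48.1 CPM (1.50 ± 0.11). TLR6 fell from 25 and 28.3 to 12.6 and 14.9 CPM (-0.95 ± 0.11), while TLR2, CLEC6A and CLEC4E had 0 counts. Of 9 acute-phase and antimicrobial genes 7 rose and 0 fell, among them S100A9 (523 and 500.4 to 771 and 737 CPM) and LCN2 (0.63 ± 0.08). Of 25 cytokine receptors 7 rose (28%, beside 15.8% over all genes) and 4 fell (16%, beside 17.1%). Among them IL4R was at 1.27 ± 0.11 and OSMR at 0.75 ± 0.06. Without TMM 7 rose and 8 fell, and without the first DPBS library 6 rose and 2 fell.

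Membrane repair genes shifted little. Annexins and partners had 6 higher and 0 lower of 15 (median 0.15), with S100A10 going from 610.2 and 595 to 818 and 830.4 CPM (0.45 ± 0.05) and ANXA2 not called (-0.08). ESCRT genes had 7 higher and 2 lower of 17. They had 7 and 4 without the second WT ALT library and 6 and 5 without TMM. CHMP1B rose by 0.73 ± 0.09 and PDCD6, the calcium sensor that brings ESCRT to wounds, from 227 and 227 to 296 and 329 CPM (0.46 ± 0.06). VPS4B, one of the ATPases that recycle ESCRT, fell (-0.52 ± 0.08). Among enzymes of sphingomyelin and ceramide 7 of 22 rose and 2 fell, led by UGCG, which makes glucosylceramide (41.7 and 38.1 to 142 and 149.5 CPM, 1.87 ± 0.08). The balance of that list is unsteady: 4 rose and 4 fell without TMM, 6 and 5 without the second WT ALT library, 6 and 1 without the first, and 4 and 0 without either DPBS library. Of 24 ion pumps, channels and purine receptors 8 rose and 3 fell, or 6 and 5 without TMM: the potassium-chloride cotransporter SLC12A7 went from 346 and 355 to 667 and 721 CPM (0.99 ± 0.05) and ATP1B1, a sodium pump subunit, rose by 0.50 ± 0.06. The system A transporter SLC38A2 went from 266 and 267 to 739 and 848 CPM (1.57 ± 0.06).

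Developmental pathways and epithelial genes also moved. In the Notch list 7 of 14 rose and 2 fell, or 5 and 1 without the first DPBS library: the ligand JAG1 went from 23.9 and 24 to 65.7 and 63.1 CPM (1.43 ± 0.09) and RBPJ, the pathway's DNA-binding factor, fell (-0.58 ± 0.09). Among TGF-beta and BMP feedback genes 9 of 19 rose and 3 fell, with the BMP target ID2 going from 10.1 and 8.1 to 55.7 and 38.8 CPM (2.37 ± 0.15). In the Wnt list the inhibitor DKK1 rose from 18.9 and 18.1 to 114 and 134 CPM (2.74 ± 0.11), and the target AXIN2 fell from 9.47 and 9.7 to 4.2 and 5.34 CPM (-1.01 ± 0.16); 5 of 14 rose and 4 fell, or 2 fell without the first DPBS library. Junction and keratin genes had 15 higher and 6 lower of 25. CLDN1, a tight junction protein, rose by 1.16 ± 0.07 and KRT80 by 1.30 ± 0.07, and the desmosome genes DSP (-0.61) and DSC2 (-0.56) fell. The knockout extracts gave 180.0 and 189 CPM of DSP, near the WT ALT libraries (192 and 158 CPM) and below DPBS (275 and 261 CPM).

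Lineage factors had 8 higher and 3 lower of 17. OVOL1, a repressor of mesenchymal genes, went from 24.7 and 24.7 to 154 and 123 CPM (2.49 ± 0.10), and ELF3 from 151 and 151 to 319.9 and 303 CPM (1.04 ± 0.06). SOX2 fell from 3.55 and 2.72 to 0.54 and 0.753 CPM (-2.28 ± 0.31). Of 12 tested mucin and goblet genes 3 rose and 0 fell. Without the first WT ALT library 1 rose and 2 fell, and without the second 7 rose and 0 fell, so the count turns on which treated library is kept. The mucin MUC5AC rested on 1 library: it stood at 394 and 366 CPM with DPBS and at 913 and 405 CPM under WT ALT (0.79 ± 0.21, adjusted p = 0.00889), and without the first WT ALT library the change was 0.09 (adjusted p = 0.237). With the knockout extracts its mean was 151 and 159 CPM, under both DPBS libraries. TFF1, a trefoil peptide, rose from 440.3 and 430.4 to 640.1 and 598 CPM (0.51 ± 0.06).

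The decreases were smaller and of other kinds. After BMF came LFNG, a glycosyltransferase that modifies Notch (hg19 chromosome 7, 2552163 to 2568811, plus strand), from 26.2 and 24.6 to 5.73 and 4.39 CPM (-2.32 ± 0.15, adjusted p = 5.53e-09). KBTBD7 and KBTBD6, paired substrate adaptors of a CUL3 ubiquitin ligase, fell from 11.7 and 13 to 2.16 and 3.39 and from 15.6 and 19.5 to 4.23 and 5.52 CPM (-2.16 ± 0.18 and -1.85 ± 0.15); they are close paralogues, so reads may be shared. PDE3B, a phosphodiesterase, fell from 4.92 and 6.18 to 1.05 and 1.76 CPM (-1.98 ± 0.25). VAV3, an exchange factor for small GTPases, fell from 82.2 and 87.1 to 24.1 and 35.3 CPM (-1.51 ± 0.12), and NECTIN4, an adhesion molecule, from 38 and 35.6 to 14.3 and 11.8 CPM (-1.49 ± 0.11). In each of these genes the 2 treated libraries lay below both controls, which the rule for naming decreases required. CXXC4, TMCC3, TTC30B, C1orf74, FAM217B, PPP1R3D and RHOU also fell, with log2 changes from -2.25 to -1.54. PPP1R3D lies within the span of FAM217B on the opposite strand, so reads may be shared. Their decreases (-1.62 and -1.64) may therefore not be separate. By loss in CPM, MT-CO1, HSP90AA1, RDH10, HSPA8, AKR1C2, SCD, HMOX1, NCL, CPS1 and TOP2A came first; SCD, a fatty acid desaturase, fell from 923 and 908 to 652 and 702 CPM (-0.44 ± 0.05). LIPT2-AS1, annotated as a long non-coding RNA of a bidirectional promoter, fell (-1.91 ± 0.20). The library kit does not mark strand, so reads from any stretch shared by genes on opposite strands cannot be told apart.

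Of 24 replication and mitosis genes 13 fell and 2 rose (median -0.24, beside 17.1% lower over all genes). TOP2A went from 448 and 449 to 240.4 and 271 CPM (-0.81 ± 0.06, adjusted p = 1.91e-08) and CCNA2 (cyclin A2) from 125 and 119.5 to 61.4 and 70.7 CPM (-0.89 ± 0.07). MKI67 went from 466 and 439 to 278 and 246 CPM (-0.79 ± 0.06), and with the knockout extracts it averaged 299 and 319 CPM, also under both DPBS libraries. CCNB1 (-0.01), CDK1 (0.11) and E2F1 (-0.07) were not called, and CDC25A rose by 0.32 ± 0.07. Cholesterol synthesis had 10 lower and 1 higher of 20. SQLE, which oxidises squalene, fell from 416 and 405 to 208 and 244 CPM (-0.86 ± 0.07), and INSIG1 (-0.55 ± 0.07) also fell. The list of tRNA synthetases and amino acid transporters had a median level of 166 CPM, and of all genes over 100 CPM 26.1% fell and 27.9% rose. Of its 24 genes 6 fell (25%), near that share, among them AARS1 (-0.33 ± 0.06), and 1 rose (4.17%). The lower count was 11 without TMM, 4 without the first WT ALT library, with 3 higher, 4 without the first DPBS library and 9 without the second WT ALT library.

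Ribosomal protein genes rose together by a little. Of 78 tested 67 rose and 0 fell, with a median log2 change of 0.31 and called changes between 0.14 and 0.77. RPS27 went from 1352 and 1189 to 1935 and 1846 CPM (0.57 ± 0.06) and RPL22L1 from 84.7 and 82.4 to 146 and 126 CPM (0.70 ± 0.07). Processed copies of these genes are many, so their counts are uncertain. Of 178 tested zinc finger genes with ZNF symbols on chromosome 19, 36 fell (20.2%, beside 17.1% over all genes) and 5 rose (2.81%, beside 15.8%), with a median of -0.34. Their median level with DPBS was 3.11 CPM, and of all genes at 1 to 10 CPM 10.3% fell and 11% rose. Both WT ALT libraries lay below both DPBS libraries in 93 of the 178 and above them in 25. With 2 libraries a group some genes separate in this way by order alone, and the share over all tested genes was not counted. Of 206 zinc finger genes elsewhere 71 fell (34.5%) and 11 rose (5.34%), with a median of -0.27. ZNF746 fell from 65.6 and 65 to 37.6 and 41.6 CPM (-0.72 ± 0.07) and ZNF33A from 23.6 and 22.7 to 11.8 and 11 CPM (-1.02 ± 0.10), while ZNF394 rose from 16.8 and 14.4 to 38.6 and 35.2 CPM (1.24 ± 0.12). Over the alternatives tried, 54 to 69 ribosomal protein genes rose, and 23 to 46 chromosome 19 zinc finger genes fell, the lowest count without the second DPBS library.

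The direction of change went with the length of the gene on the genome. In the second decile of genes by span (median 3533 bases, median level 3.31 CPM) 23.1% rose and 9.29% fell. In the fifth (median 20038 bases, 21 CPM) 17.5% rose and 15.8% fell, and in the ninth (median 104829 bases, 28.6 CPM) 12.6% rose and 27.3% fell. Genes that rose had a median span of 17633.5 bases and those that fell of 45412 bases. With library totals in place of TMM factors the second decile had 17.9% higher and 12.2% lower and the ninth 9.69% higher and 35.5% lower. Without the second DPBS library the same shares were 15% and 7.15%, and 8.44% and 20.4%. Ribosomal protein genes are short (median span 5564 bases). Chromosome 19, which is dense in genes, had 22.2% higher and 8.3% lower, although 36 of its ZNF genes fell. The part of length, level or RNA quality in any of these counts was not tested.

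**Figure D4:**
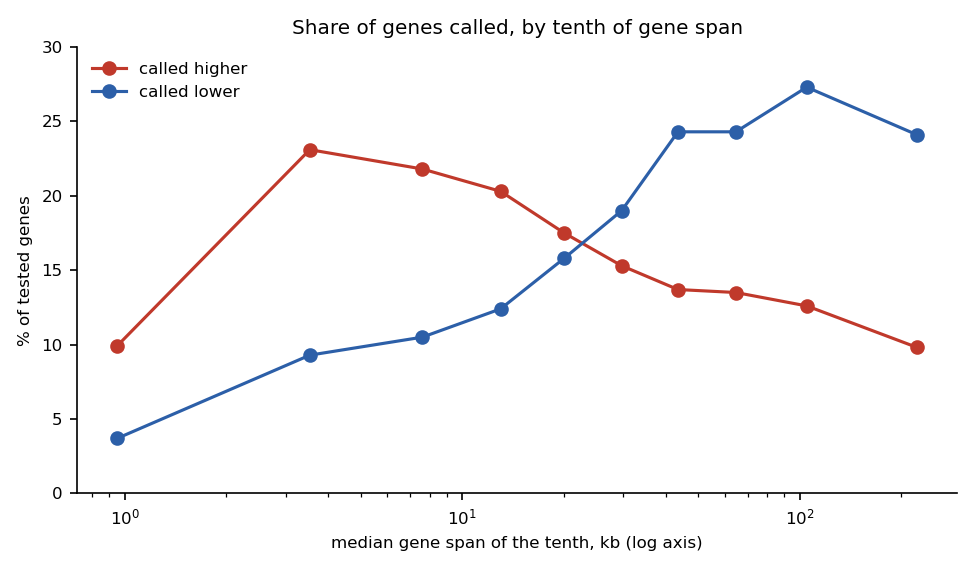
Share of tested genes called higher (red) and lower (blue), in percent, in each decile of genes by span, placed at the decile's median span in kb on a log axis. From the second decile (23.1% higher, 9.29% lower) to the ninth (12.6% and 27.3%) the lines cross; the first decile holds genes with a median of 0.679 CPM and few calls of either kind.

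Genes of the mitochondrial genome depended on the control used. MT-CO1, a subunit of cytochrome oxidase, was at 3334 and 6544 CPM with DPBS and at 2072 and 3104 CPM with the extract (-0.93 ± 0.22, adjusted p = 0.00337), and the second DPBS library lay well above the other 3. Without the second DPBS library its change was -0.37 (adjusted p = 0.127), and DESeq2 did not call it. MT-ND2 was at 1642 and 2323 and then 3549.6 and 2903 CPM (0.70 ± 0.12). Of 13 protein-coding mitochondrial genes 2 were called higher and 2 lower, 8 higher and 1 lower without the second DPBS library, and 2 higher and 8 lower without the first.

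The knockout extracts share the DPBS libraries with WT ALT, so their values are set side by side here. Against DPBS, 181 genes (1.08%) were called with the aegs KO extract and 128 (0.766%) with the aegl KO extract. Of the 20 largest increases edgeR called 0 with either, and in all 20 WT ALT was above each knockout extract in its own test. The 20 were chosen by their rise in the same WT ALT libraries, so the choice favoured that second count. At an unadjusted p under 0.05, 0 of the 20 differed from DPBS with the aegs KO extract and 8 with the aegl KO extract (IL6, CXCL8, CXCL1, IL1A, PTGS2, NR4A1, EFNA1 and JUN), and DESeq2 called 1 of these, CXCL1, with the aegl KO extract. IL6 had means of 0 and 0.0973 CPM with the aegs KO and aegl KO extracts, CXCL8 6.28 and 8.4 CPM, CXCL1 2.4 and 3.85 CPM and PTGS2 16.6 and 19.6 CPM. FOSL1 had 36.1 and 43.1 CPM, EREG 38.8 and 47.2 CPM and CDKN1A 22.5 and 25.3 CPM. Among the 15 decreases the knockout extracts were not always at the level of DPBS. LFNG was called lower with both (15.3 and 15.1 CPM) and BMF with the aegs KO extract (4.32 and 4.66 CPM). All 15 were lower under WT ALT than under each knockout extract, a count that their choice by the same WT ALT libraries also favoured. WT ALT against the extracts gave 5002 (29.9%, aegs KO) and 5120 (30.6%, aegl KO) called genes.

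A further set of tests asked whether the effect of the extract differed from another effect, each taken against the DPBS of its own experiment. In the first NCI-H1437 experiment cells received an extract labelled ALT for 4 h, with 3 libraries per group. Of 17644 genes 1 differed (0.00567%): CYP1A1, a target of the aryl hydrocarbon receptor that metabolises polycyclic compounds. It was at 364 and 387 CPM with DPBS and 414 and 416 CPM with WT ALT here, and at 75.2, 74.2 and 78.3 CPM with DPBS and 7.22, 8.27 and 8.24 CPM with ALT there, a difference of log2 effects of 3.42 ± 0.29 (adjusted p = 7.32e-05). At an unadjusted p under 0.05, 1499 genes differed, and DESeq2 called 138. The joint fit was less sensitive than the experiment alone, with 347 genes called higher and 186 lower for WT ALT against DPBS, so it does not show that the effects were alike.

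In the third NCI-H1437 experiment cells received the proteins Aeg-S and Aeg-L together (Aeg-S/L) for 4 h. Of 17546 genes 340 differed. The effect of WT ALT was above that of the proteins in 98 (0.559%) and below it in 242 (1.38%). Experiment and stimulus cannot be told apart, and no dose is given for either. NF-kB feedback genes had 0 above and 7 below of 23: NFKBIA rose by 4.45 with WT ALT and by 5.04 with the proteins (difference -0.59 ± 0.13, adjusted p = 0.0141), and REL by 1.55 and 2.37. The call for NFKBIA ended without the second DPBS or second Aeg-S/L library of that experiment, and that for REL without the first of either or the first DPBS library here. EGR2 reached 106 and 117 CPM there, with a difference of -3.98 ± 0.92. Without the second DPBS library here that difference was -2.72 (adjusted p = 0.542), and without the second there -3.55 (adjusted p = 0.0678). Heat shock genes had 0 above and 5 below of 15. At an unadjusted p under 0.05 the lists had 1 and 0 members above, and DESeq2 called 0 above in either. DNAJB1 was at 165 and 168 CPM with DPBS and 277 and 290.1 CPM with the proteins there, a log2 effect of 0.77 against -0.45 here (difference -1.21 ± 0.09, adjusted p = 1.80e-08). RCAN1, the calcineurin feedback gene not called here, went from 11 and 9.66 to 39.8 and 38.5 CPM there (difference -1.66 ± 0.20, adjusted p = 1.96e-05). The YAP target CCN1 (3.76 here, 4.97 there) and the Notch target HES1 (1.99 and 3.11) also differed. Above the proteins were the EGR corepressor NAB2 (2.68 against 1.63, adjusted p = 0.000387), the deubiquitinase OTUD1 (2.15 against 1.02), the transcription factor FOXQ1 (2.96 against 1.53) and the collagen receptor subunit ITGA2 (1.26 against 0.21).

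**Figure D5:**
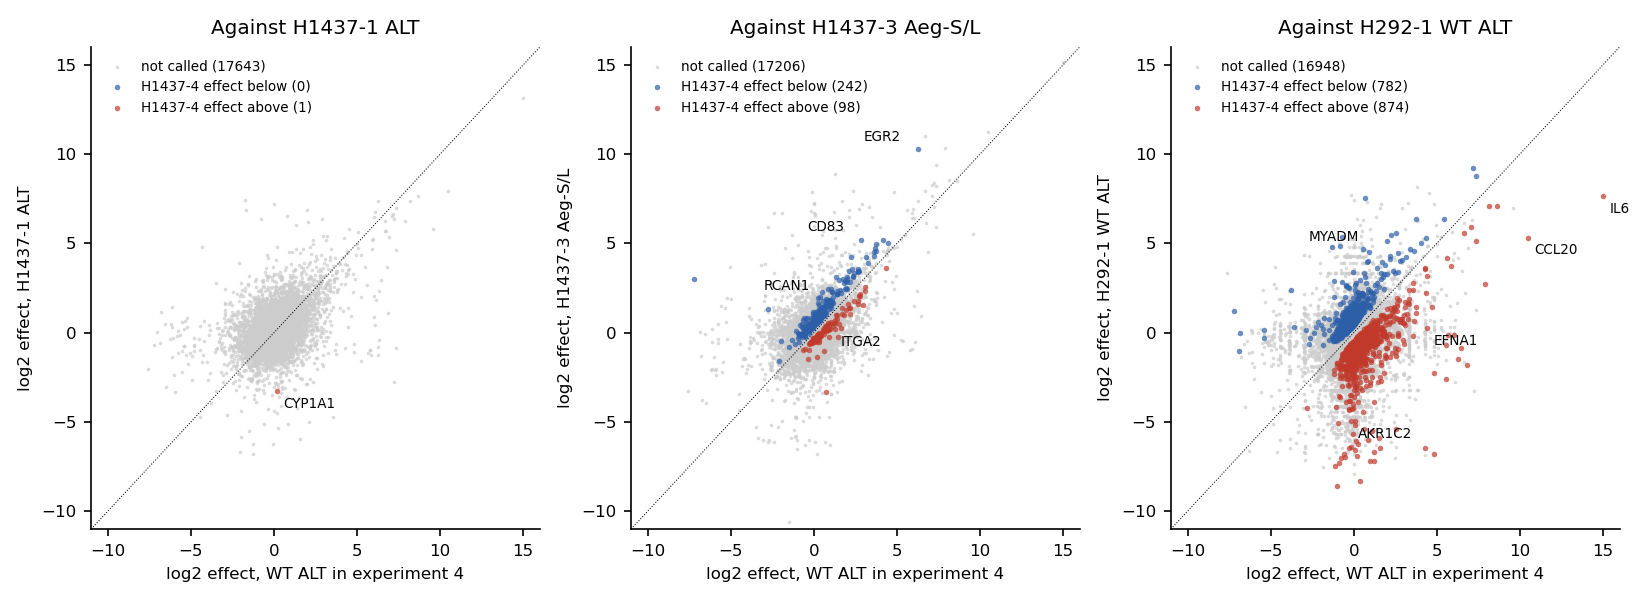
Log2 effect of WT ALT in the fourth NCI-H1437 experiment (horizontal axis) against the log2 effect, from the same joint fit, of ALT in the first NCI-H1437 experiment, of Aeg-S/L in the third, and of WT ALT in NCI-H292 (vertical axes); each point is a gene, and the dotted line marks equal effects. Coloured points differed at an adjusted p under 0.05: 1, 340 and 1656 genes, red where the effect here was above and blue where it was below.

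NCI-H292, an epithelial line from a mucoepidermoid lung carcinoma, received an extract with the same label, WT ALT, for 4 h. Line and experiment cannot be told apart. Of 18604 genes 1656 differed, 874 above (4.7%) and 782 below (4.2%). NRF2 targets had 15 of 19 above and 0 below (16 and 0 by DESeq2 and at an unadjusted p under 0.05), with median effects of -0.08 here and -1.11 in NCI-H292. HMOX1 went from 89.3 and 76.4 to 2.98 and 1.97 CPM in NCI-H292, an effect of -5.06 against -0.92 here (difference 4.15 ± 0.22, adjusted p = 3.66e-09). AKR1C2, a ketosteroid reductase of the same group, went from 228 and 199 to 7.23 and 6.62 CPM there, while here it stood at 3193 and 3239.7 CPM with DPBS and 2825 and 2972 CPM with WT ALT (difference 4.80 ± 0.16, adjusted p = 1.03e-11). Of the inflammatory genes that differed, most were above: NF-kB genes 13 above and 2 below of 24, cytokines 11 and 2 of 28, chemokines 4 and 0 of 11. CXCL8 reached 219 and 233 CPM there, and the difference of its effects was 1.50 ± 0.37 (adjusted p = 0.0173), a call that ended without any 1 of 6 of the 8 libraries (adjusted p up to 0.068). CCL20 reached 8.43 and 10.2 CPM, and DESeq2 did not call its difference. EFNA1 had an effect of 0.24 there and 4.43 here (difference 4.20 ± 0.14, adjusted p = 1.03e-11).

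ERK feedback genes lay on the other side, with MAP kinase phosphatases and RAS-ERK inhibitors 1 above and 7 below of 17. DUSP6, a cytoplasmic ERK phosphatase, went from 5.26 and 6.95 to 219 and 214 CPM in NCI-H292 and from 16 and 15.6 to 61.2 and 63.7 CPM here (difference -3.18 ± 0.17, adjusted p = 3.96e-09). The EGF receptor ligands split. HBEGF rose more in NCI-H292 (4.47 against 2.64, adjusted p of the difference = 5.95e-05), and AREG, barely expressed there (0.813 and 0.418 CPM with the extract), had an effect above by 3.68 ± 0.78. That call ended without the first DPBS library of NCI-H292 (adjusted p = 0.104). Heat shock genes had 0 above and 8 below of 17, DNAJB1 with -0.46 here and 1.02 there. The small GTPase gene RND3 had 0.90 here and 4.52 there, reaching 1383 and 1379.9 CPM.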

How the data were processed

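The authors deposited a table of gene counts for each experiment: whole fragments per Ensembl gene, not normalized. Per the labels, RNA extraction used a TIANGEN RNAprep kit, and library preparation a NEBNext Ultra RNA kit, which does not keep strand. Per the submitters' processing notes, HISAT2 2.2.1 (hg19), SAMtools, featureCounts 2.0.2 and DESeq2 1.36.0 in R 4.2.2 were used. The sources used here give no strand setting for featureCounts. Of 57820 gene IDs 51996 had a symbol.

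All 8 libraries of the experiment were fitted with edgeR 4.0.16 in R 4.3.3: filterByExpr, TMM factors, 1 coefficient per group, quasi-likelihood F test, Benjamini-Hochberg over all genes tested, called at an adjusted p under 0.05. CPM use TMM-scaled library sizes. Standard errors are the absolute log2 change over the square root of F. Values after ± are standard errors, and pairs of CPM are replicates 1 and 2. Differences between experiments came from joint fits, with p adjusted over all genes of that fit. A gene with 0 counts in a group is set against a floor of 3 counts over the group.

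Named genes are the 20 largest increases and 15 largest decreases (at least 5 CPM in the higher group, no overlap), the 10 largest gains and losses in CPM, list members, and the 8 largest differences each way per joint fit. The list members named with a difference of effects, and the 5 promoters printed, were picked after their values were seen. Members and lists were chosen with earlier results of these data known. Replicates of a group differed beyond sampling noise (chi-square per degree of freedom 3.99 to 12.54). Replicate numbers did not pair libraries: correlations of same-numbered deviations lay between -0.044 and 0.035. The alternatives were DESeq2 1.42.0, other filters and scalings, a replicate block, the 4 libraries alone and leaving out each library; library totals without TMM were added after the data were seen. Where leaving out a library left a group with a single one, that library was assumed to vary like the other groups. The code was tested on simulated data. In the main comparison 23 of 210 calls were false, and 88% of changes of 1 log2 unit were recovered. The joint fit with the first NCI-H1437 experiment recovered 3% of such changes. Some list members are counted but not reported by name here.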

Additional observations from a re-analysis of the deposited data

Results flagged for a closer look

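The results below are those in which the effect of WT ALT differed from another effect by the test of the difference itself: 1 gene against ALT in the first NCI-H1437 experiment, 340 against Aeg-S/L in the third and 1656 against WT ALT in NCI-H292. Values are differences of log2 effects, this experiment minus the other, each effect against its own DPBS.

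Against the first experiment, CYP1A1 differed by 3.42. Against Aeg-S/L, effects of the extract were higher for CES1P1 (1.65, a pseudogene that may share reads with CES1), FOXQ1 (1.43), SCAT8 (1.36), HS3ST1 (1.13), OTUD1 (1.13), SLC16A9 (1.12), NAB2 (1.05) and ITGA2 (1.04). They were lower for the growth response factor EGR2 (-3.98), CD83 (-2.36), PTGER4 (-2.0), the deubiquitinase USP43 (-1.81), HADHAP1 (-1.77), RCAN1 (-1.66), SMG1P2 (-1.63) and RIMKLB (-1.57). HADHAP1 and SMG1P2 are pseudogenes whose reads may come from their parent genes. Among list members they were lower for DNAJB4 (-1.27), DNAJB1 (-1.21), CCN1 (-1.21), HES1 (-1.12), NR4A3 (-1.04), REL (-0.82), NFKBIA (-0.59) and NFKB1 (-0.58). CD83 went from 0.533 and 1.03 to 27.1 and 30.7 CPM with the proteins and from 1.17 and 0.499 to 5.49 and 6.65 CPM with the extract, and USP43 from 9.6 and 10.3 to 49 and 48.8 CPM and from 11.7 and 8.43 to 13.2 and 14.9 CPM. Leaving out 1 library ended the call, for at least 1 of the libraries, of HADHAP1, CES1P1, SCAT8, HS3ST1, SLC16A9, PTGER4, SMG1P2, REL, EGR2, NFKBIA, RIMKLB, FOXQ1 (1.16 without the first DPBS library of this experiment, adjusted p = 0.0516) and CD83 (-1.60 without the same library, adjusted p = 0.15); HADHAP1 also lost it with the replicate block (adjusted p = 0.0529).

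Against NCI-H292, effects here were higher for LUCAT1 (7.91), IL6 (7.34), PARM1 (6.49), C11orf96 (5.15), CCL20 (5.14), NPR3 (5.04), AKR1C2 (4.80), HMOX1 (4.15), EFNA1 (4.20), AREG (3.68), AKR1C1 (3.62), OSGIN1 (2.62), GCLC (1.58) and CXCL8 (1.50). They were lower for PRSS12 (-5.51), TRBC2 (-5.07), MYADM (-4.12), C9orf152 (-4.07), LINC00941 (-3.92), RND3 (-3.62), ADAMTS1 (-3.54), RASGEF1B (-3.46), DUSP6 (-3.18), HBEGF (-1.83) and DNAJB1 (-1.47). For LUCAT1, IL6, PARM1, PRSS12 and TRBC2 a group had 0 counts, so the fitted difference depends on the prior count and is no measure of size. Other sizes rest on few counts, by the group means with DPBS and extract. In NCI-H292 these were 1.05 and 0.0301 CPM for NPR3 and 0.0246 and 0.224 CPM for C9orf152. Here they were 0.418 and 0.0294 CPM for LINC00941 and 0.72 and 0.434 CPM for ADAMTS1. C11orf96 and CCL20 were at 0.0206 and 0.0327 CPM with DPBS here. The detoxifying genes HMOX1, AKR1C1, AKR1C2, OSGIN1 and GCLC are NRF2 targets; AKR1C1 and AKR1C2 are near-identical copies whose reads may be shared. MYADM, a membrane protein, went from 1.01 and 0.918 to 26.1 and 24 CPM in NCI-H292 and from 46.5 and 45.5 to 64.1 and 73.3 CPM here. AKR1C1 went from 46 and 39.2 to 3.31 and 3.67 CPM there and from 5526 and 5588 to 5337 and 5895 CPM here. The call for CCL20 ended with DESeq2 (adjusted p = 0.0622) and without any 1 of 5 libraries, and without the first DPBS library of NCI-H292 its difference was 2.35 (adjusted p = 0.755). Leaving out 1 library also ended, for at least 1 of the libraries, the calls for C11orf96, PRSS12, TRBC2, CXCL8, LINC00941, AREG and C9orf152.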

How the results depend on the processing

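For WT ALT against DPBS, DESeq2 called 2568 genes higher and 2788 lower, and the fit with the replicate number as a block 2534 and 2773, beside 2632 and 2851. Library totals without TMM gave 1938 and 3819. Leaving out each library in turn gave 1690 to 2628 higher and 2083 to 3185 lower; the higher count moved by over 1.5 times only without the second DPBS library. Of 561 recomputed values of named genes 551 kept their side of the threshold, and the 10 others fell in MT-CO1, HSP90AA1, HSPA8, AKR1C2 and NCL. Of 424 called list members, ribosomal proteins and ZNF genes aside, 96 lost the call under at least 1 of 11 alternatives and 0 took the opposite sign.

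The count of genes differing from the first NCI-H1437 experiment was 1 with the block, 138 with DESeq2 and 111 without the low-count filter; it was 1 to 46 without each library, 46 without DPBS 1 of that experiment. Against Aeg-S/L (340), the block gave 400, DESeq2 627 and no filter 590. Without each library it ranged from 166 to 584, with 166 and 181 without Aeg-S/L 2 and 1, 206 without DPBS 1 of the third experiment, 177 without DPBS 2 of the fourth and 584 without WT ALT 1. Against NCI-H292 (1656), the block gave 1676, DESeq2 2386 and no filter 2271. Without each library it ranged from 841 to 1436, with 841, 894 and 1036 without WT ALT 1, WT ALT 2 and DPBS 1 of NCI-H292 and 922, 951 and 1031 without DPBS 1, DPBS 2 and WT ALT 2 of the fourth experiment. The cause was not tested. Of 602 recomputed differences of named genes 78 lost the call, in 21 of 50 genes, and 0 reversed.

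With 2 libraries a group, the precision is that of the pooled spread of 4 groups, and genes under 1 CPM rest on few counts.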
